A study of Mus musculus with 6 samples.

Results

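The insulin-like growth factor (IGF) genes described here are 9 genes measured in brown adipose tissue (BAT): the ligand *Igf1*, the receptors *Igf1r* and *Igf2r*, and the binding proteins *Igfbp2*, *Igfbp3*, *Igfbp4*, *Igfbp5*, *Igfbp6* and *Igfbp7*. They were taken by symbol, with no threshold on a measured value, and each symbol matched 1 of the 47729 genes of the table. Tissue came from male wild type C57BL/6J mice kept on their diet from 6 to 10 weeks of age, 3 mice on a 45% high-fat diet (HFD) and 3 on a standard rodent diet, the low-fat diet (LFD). Each library is the right interscapular BAT of 1 mouse, sequenced after removal of ribosomal RNA, and the mice are called HFD1 to HFD3 and LFD1 to LFD3 after diet and replicate number. The authors picked for each diet the mouse with the most fat mass, one with a medium and one with the least, so the spread within a diet also holds a spread in fat mass, and the sources used here do not tie a fat mass to a replicate number.

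IGF1 is a secreted growth factor made in the liver and locally in many tissues, adipose tissue among them, and it acts through the tyrosine kinase receptor IGF1R. IGF2R is the cation-independent mannose 6-phosphate receptor, which removes IGF2 from the surroundings of the cell and sorts lysosomal enzymes. The binding proteins are secreted, hold IGFs outside the cell and either keep them from the receptor or carry them to it.

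Each mouse gave between 17156991 and 21603487 rounded expected counts, of which mitochondrially encoded genes took from 3.87% (LFD3) to 22.7% (HFD1). The labelled tissue was checked against 10 brown adipocyte markers, whose TPM, a transcript level scaled to length and to a fixed sum per library, added up to 1868 to 7338 under HFD and 321 to 2075 under LFD. TPM of *Ucp1*, the uncoupling protein that defines brown adipocytes, was 443 (LFD1), 11.03 (LFD2) and 75.98 (LFD3), against 2728 (HFD1), 4021 (HFD2) and 796 (HFD3), so this marker was low in the tissue labelled BAT of the LFD-fed mice. The 12 skeletal muscle markers, none at 0 in any mouse, summed to 1869 to 12819 TPM in LFD-fed and 7.38 to 190 TPM in HFD-fed mice. The 11 fibroblast and progenitor markers summed to 4124 to 6271 TPM under HFD. Under LFD they summed to 2185 (LFD1), 11183 (LFD2) and 33342 TPM (LFD3), so the lowest and the highest sum were both of LFD-fed mice. Macrophage markers summed to 1999 to 4152 TPM under HFD and 638 to 4616 TPM under LFD, mural cell markers to 105 to 254 and 114 to 262 TPM. In the same order, T and NK cell markers summed to 10.5 to 34.9 and 1.64 to 12.3 TPM, and mesothelial markers, of which *Msln*, *Upk3b* and *Wt1* were at 0 in at least 1 mouse, to 0.590 to 1.14 and 1.19 to 2.63 TPM. All 12 skeletal muscle markers were lower under HFD at an unadjusted p under 0.05 by edgeR, without overlap of the diets in log2 CPM. Of the 9 tested T and NK cell markers 6 were higher at that p and 7 did not overlap. Of the 10 brown adipocyte markers 2 were higher at that p and 2 did not overlap. The sums of both lists overlapped between diets. Of the 12 tested macrophage markers 3 were higher and 3 did not overlap. For the 10 endothelial markers these counts were 3 and 1, and for the 7 mural cell markers 1 and 1. Among all tested genes 3.86% were higher at that p, and 6.72% had every HFD-fed mouse above every LFD-fed mouse. Of the 11 fibroblast and progenitor markers 10 had a log2 fold change, HFD over LFD, below 0, where 54.4% of all tested genes did, with a median of -1.23. At that p 2 of them were lower, *Pdgfra* and *Dcn*, where 6.62% of all tested genes were. Every HFD-fed mouse lay below every LFD-fed mouse for 2, *Pi16* and *Dcn*, as for 9.23% of all tested genes. The part of these cell types in the differences below was not tested, and fewer cells of a type cannot be told apart from less RNA per cell in bulk tissue.

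*Igf1*, *Igfbp3*, *Igfbp4*, *Igfbp5* and *Igfbp6* had lower mean TPM under HFD, at 22.6% to 38.6% of the LFD mean, while *Igf2r* and *Igfbp7* lay at 92.8% and 70.2%, with diets that overlapped. A gene was called when its adjusted p was below 0.01 and its log2 fold change was beyond 1.5 in size, the thresholds of the study. By edgeR's quasi-likelihood test 0 of the 8 IGF genes that passed the filter on low counts were called, as were 0 (0%) of all 17668 tested genes in either direction. At an unadjusted p under 0.05, edgeR placed 4 of the 8 genes lower under HFD (*Igf1*, *Igfbp3*, *Igfbp4* and *Igfbp6*) and 0 higher, where 6.62% of all tested genes were lower and 3.86% higher. In log2 CPM, which scales counts to library size without regard to length, 4 genes (*Igfbp3*, *Igfbp4*, *Igfbp5* and *Igfbp6*) had each HFD-fed mouse below each LFD-fed mouse and 0 had the reverse, against 9.23% and 6.72% of all tested genes. The log2 fold change was below 0 for 7 of the 8 genes and for 54.4% of all tested genes, with medians of -1.32 and -0.05. Paired by replicate number, edgeR had 5 of the 8 genes lower at an unadjusted p under 0.05 (*Igf1*, *Igf1r*, *Igfbp3*, *Igfbp4* and *Igfbp5*, without *Igfbp6*), where 8.76% of all tested genes were, and 1, *Igfbp4*, lower at an adjusted p under 0.05, where 0.877% were. The labels give these numbers, but no source used here states that same-numbered mice of the 2 diets belong together.

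**Figure D1:**
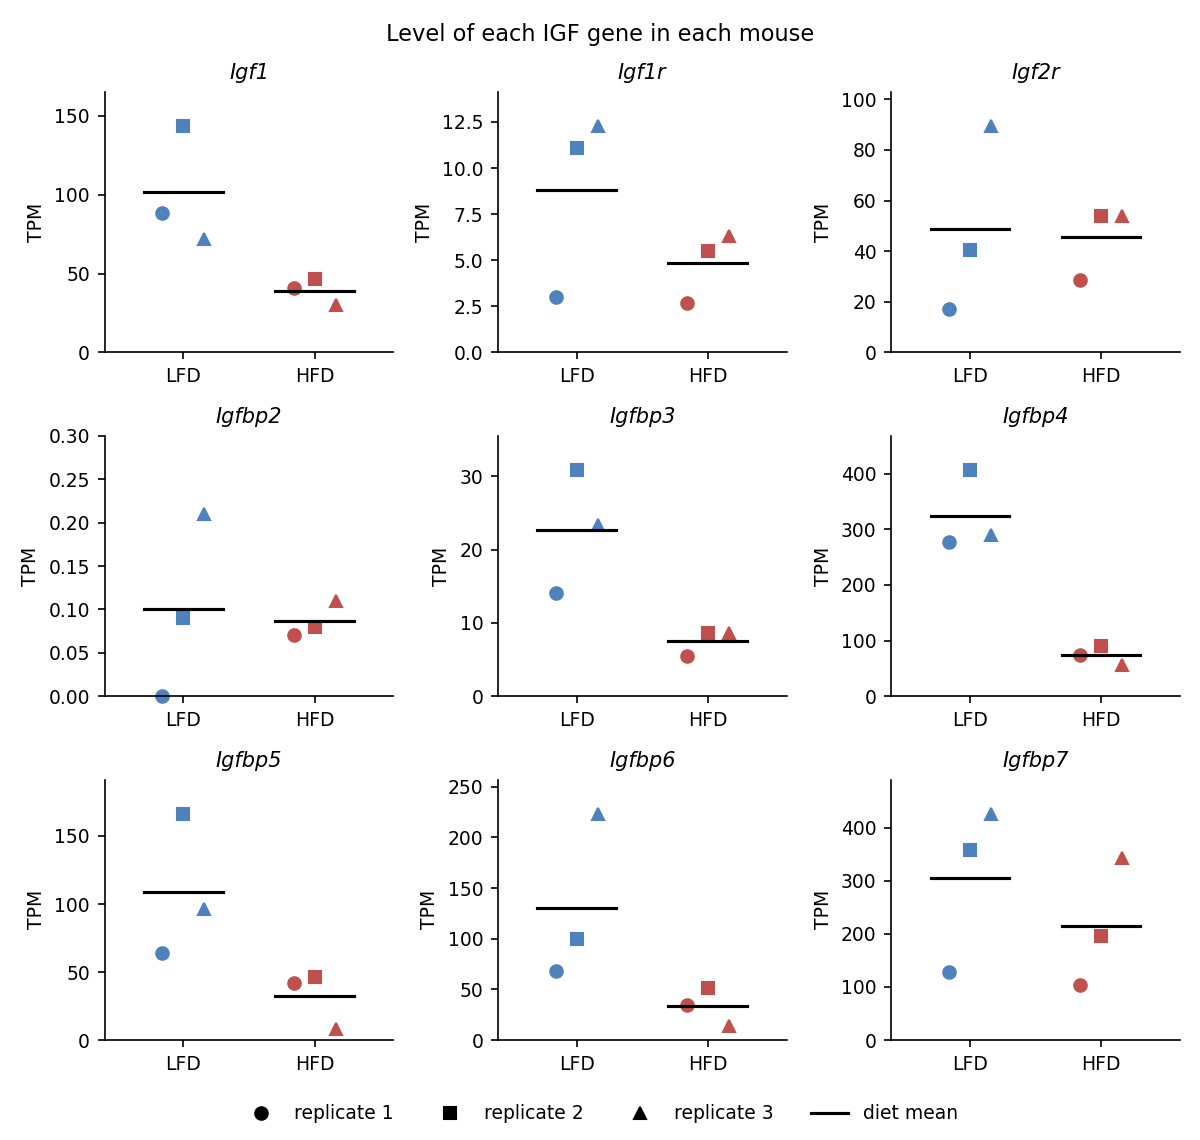
Level of the 9 IGF genes in TPM (vertical axis, from 0) in each of the 3 LFD-fed and 3 HFD-fed mice, with the diet mean as a line and the replicate number as the shape of the point. *Igfbp4* lies between 277 and 407 TPM in LFD-fed and between 55.9 and 89.6 TPM in HFD-fed mice, whereas the diets overlap for *Igf2r* and *Igfbp7*.

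The 250 bases before the RefSeq start of *Igfbp3*, *Igfbp4*, *Igfbp5* and *Igfbp6* are shown because these are the genes whose diets did not overlap in log2 CPM. The windows are chr11:7213924-7214173 on the reverse strand for *Igfbp3*, chr11:99040994-99041243 on the forward strand for *Igfbp4*, chr1:72874866-72875115 on the reverse strand for *Igfbp5* and chr15:102143936-102144185 on the forward strand for *Igfbp6* (GRCm38.p6). Those of *Igfbp3*, *Igfbp4* and *Igfbp6* lie outside the GENCODE span of the gene, and 19 bases at the 3′ end of that of *Igfbp5* lie within its first exon. The RefSeq start of *Igfbp6* lies upstream of the GENCODE start. All 9 genes matched the RefSeq table. Sequences run 5′ to 3′ on the strand of the gene. Capitals mark matches, on either strand, to any of 6 short motifs: TATAAA for the TATA box, CCAAT for the CCAAT box, GGGCGG for the GC box, CACGTG for the E-box, TTCNNNGAA for the STAT site and AGGTCA for the nuclear receptor half-site.
Igfbp3: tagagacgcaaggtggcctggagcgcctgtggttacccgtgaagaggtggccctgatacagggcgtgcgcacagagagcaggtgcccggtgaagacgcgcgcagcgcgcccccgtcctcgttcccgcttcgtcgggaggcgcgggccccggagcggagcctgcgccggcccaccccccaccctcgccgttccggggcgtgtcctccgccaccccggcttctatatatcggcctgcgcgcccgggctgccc
Igfbp4: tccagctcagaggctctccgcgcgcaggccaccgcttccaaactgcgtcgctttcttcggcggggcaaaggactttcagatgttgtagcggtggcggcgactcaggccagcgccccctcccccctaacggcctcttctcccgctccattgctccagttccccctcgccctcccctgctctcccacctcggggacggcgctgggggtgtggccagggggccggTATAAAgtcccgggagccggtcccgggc
Igfbp5: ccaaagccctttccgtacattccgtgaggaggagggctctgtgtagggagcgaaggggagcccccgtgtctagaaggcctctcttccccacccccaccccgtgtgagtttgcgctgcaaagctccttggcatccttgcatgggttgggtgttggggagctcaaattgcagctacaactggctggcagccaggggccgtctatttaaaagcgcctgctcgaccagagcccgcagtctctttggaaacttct
Igfbp6: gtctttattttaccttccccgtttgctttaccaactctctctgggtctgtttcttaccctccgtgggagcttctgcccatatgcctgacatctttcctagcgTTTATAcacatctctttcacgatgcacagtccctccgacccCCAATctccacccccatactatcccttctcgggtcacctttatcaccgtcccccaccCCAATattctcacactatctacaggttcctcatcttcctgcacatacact
The window of *Igfbp4* holds 1 TATA box and that of *Igfbp6* 1 TATA box, on the opposite strand, and 2 CCAAT boxes, where 12.4% and 33.8% of the 32851 RefSeq windows of this length hold these motifs. No motif was found in the windows of *Igfbp3* and *Igfbp5* in these letters. The GC box, E-box, STAT site and nuclear receptor half-site, present in 32.7%, 6.02%, 7.02% and 14.02% of all windows, were in none of the 4 sequences. G and C made up 73.2% of the window of *Igfbp3*, 69.2% of *Igfbp4*, 58.8% of *Igfbp5* and 49.6% of *Igfbp6*, against a median of 52.4% over all windows. A match is a run of letters and not a measured binding site.

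Levels of different genes were compared per length, in TPM. Over the 6 mice *Igfbp7* had the highest mean level, 259 ± 134 TPM (SD, n = 6), followed by *Igfbp4* with 199 ± 145 TPM. *Igfbp7* was above *Igfbp4* in all 3 HFD-fed mice but in 1 of the 3 LFD-fed mice, so the order of these neighbours is not fixed. *Igfbp6*, *Igfbp5*, *Igf1* and *Igf2r* followed with mean TPM of 82.1, 70.6, 70.3 and 47.2. Neighbours in this middle group changed places between mice, since the higher of each pair was above the lower in 3 or 4 of the 6 mice. *Igfbp3* with 15.2 TPM, *Igf1r* with 6.82 TPM and *Igfbp2* with 0.093 TPM closed the order, and each of them lay below its upper neighbour in all 6 mice. By diet the order of means differed: under HFD it was *Igfbp7* (214 TPM), *Igfbp4* (73.3), *Igf2r* (45.4), *Igf1* (39.1), *Igfbp6* (33.7) and *Igfbp5* (32.2). Under LFD it was *Igfbp4* (325 TPM), *Igfbp7* (305), *Igfbp6* (130), *Igfbp5* (109), *Igf1* (101) and *Igf2r* (48.9), and the last 3 genes kept their places.

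*Igf1* (ENSMUSG00000020053, forward strand of chromosome 10 from 87858265 to 87937042; gene positions follow GENCODE M21 on GRCm38) encodes the ligand. Its TPM was 40.8 (HFD1), 46.4 (HFD2) and 30.3 (HFD3), against 88.6 (LFD1), 144 (LFD2) and 72.1 (LFD3). Under HFD all mice lay below all mice under LFD in TPM, with means of 39.1 ± 8.16 and 101 ± 37.4 TPM (SD, n = 3 each). In log2 CPM the diets overlapped, because HFD1 with 7.05 lay above LFD3 with 6.89. The log2 fold change, HFD over LFD, came to -1.32 with a standard error of 0.49 (edgeR adjusted p = 0.418), and the HFD-fed mouse was lower in all 3 same-numbered pairs. Its unadjusted p by edgeR, 0.0321, became 0.0918, 0.0889, 0.06303 and 0.108 without HFD2, HFD3, LFD1 and LFD2.

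*Igf1r* (ENSMUSG00000005533, forward strand of chromosome 7 from 67952827 to 68233668) encodes the receptor through which IGF1 signals. TPM was 2.70 (HFD1), 5.51 (HFD2) and 6.34 (HFD3) under HFD and 3.01 (LFD1), 11.1 (LFD2) and 12.3 (LFD3) under LFD. LFD1 lay below HFD2 and HFD3, so the diets overlapped, although the HFD-fed mouse was lower in all 3 same-numbered pairs in log2 CPM. A log2 fold change of -0.71 was fitted, with a standard error of 0.30 and a 95% interval from -1.42 to 0.01 (edgeR adjusted p = 0.483). Its unadjusted p by edgeR was 0.0522, and 0.00394 without LFD1. It rose to 0.151, 0.116, 0.0646, 0.136 and 0.135 without HFD1, HFD2, HFD3, LFD2 and LFD3.

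*Igf2r* (ENSMUSG00000023830, reverse strand of chromosome 17 from 12682406 to 12769664) encodes the receptor that takes up IGF2. HFD-fed mice had TPM of 28.5 (HFD1), 53.9 (HFD2) and 53.9 (HFD3), and LFD-fed mice 16.99 (LFD1), 40.3 (LFD2) and 89.5 (LFD3). The LFD-fed mice thus lay on both sides of the HFD-fed mice. Its log2 fold change of 0.23 had a 95% interval from -0.78 to 1.25 (edgeR adjusted p = 0.923), which holds changes of either direction. Without LFD1 the value was -0.05, without LFD2 0.06, and without LFD3 0.81, the last with an unadjusted p of 0.0272 by edgeR.

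*Igfbp4* (ENSMUSG00000017493, forward strand of chromosome 11 from 99041244 to 99054392) encodes a binding protein that keeps IGFs from the receptor and releases them when the protease PAPP-A cuts it. Measured TPM was 74.4 (HFD1), 89.6 (HFD2) and 55.9 (HFD3), and under LFD it was 277 (LFD1), 407 (LFD2) and 290 (LFD3). The LFD mean of 325 ± 71.6 TPM was 4.43 times the HFD mean of 73.3 ± 16.9 TPM (SD, n = 3 each), and every LFD-fed mouse lay above every HFD-fed mouse. RSEM's credibility interval of 1 library ran from 81.8 to 93.6 TPM in HFD2 and from 261 to 281 TPM in LFD1, the mice of the 2 diets nearest to each other. On counts the log2 fold change reached -1.86, with a standard error of 0.39 and a 95% interval from -2.78 to -0.93 (edgeR adjusted p = 0.177). With DESeq2 instead, *Igfbp4* had -1.85 with an adjusted p of 0.00111 and was the 1 IGF gene called, in a test that called 1.5% of the 20275 genes with an adjusted p lower under HFD. Paired by replicate number in edgeR, a pairing that no source used here states, its value was -1.88 with an adjusted p of 0.0343.

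*Igfbp3* (ENSMUSG00000020427, reverse strand of chromosome 11 from 7206086 to 7213923) encodes the main carrier of IGFs in blood, where it forms a complex with the acid-labile subunit. HFD-fed animals had 5.48 (HFD1), 8.59 (HFD2) and 8.65 (HFD3) TPM and LFD-fed animals 14.04 (LFD1), 30.9 (LFD2) and 23.3 (LFD3) TPM. The diets did not overlap, and in log2 CPM the HFD-fed mice were close to each other, at 4.01, 3.95 and 3.91. Mean log2 CPM was 3.96 ± 0.05 for HFD and 5.27 ± 0.30 for LFD (SD, n = 3 each). Its log2 fold change of -1.33 had the smallest standard error of the 8 genes, 0.22, a 95% interval from -1.87 to -0.80 and the smallest adjusted p of the 8 (0.171 by edgeR). DESeq2 gave an adjusted p of 2.48e-04 at -1.32, which does not reach the minimum of 1.5 in size.

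*Igfbp5* (ENSMUSG00000026185, reverse strand of chromosome 1 from 72857932 to 72874884) encodes a binding protein that also attaches to extracellular matrix. Libraries of HFD-fed mice held 42.2 (HFD1), 46.7 (HFD2) and 7.79 (HFD3) TPM, those of LFD-fed mice 64.1 (LFD1), 166 (LFD2) and 96.4 (LFD3) TPM. The diets did not overlap, but HFD3 lay far below the other HFD-fed mice. The log2 fold change of -1.35 carried the largest standard error of the 8 genes, 0.74 (edgeR adjusted p = 0.601), and was -0.86 without HFD3.

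*Igfbp6* (ENSMUSG00000023046, forward strand of chromosome 15 from 102144362 to 102149511) encodes a binding protein that prefers IGF2. In TPM it measured 35.0 (HFD1), 51.8 (HFD2) and 14.2 (HFD3) under HFD and 68.6 (LFD1), 99.4 (LFD2) and 223 (LFD3) under LFD. HFD3 was again the lowest mouse, and LFD3 was the highest. The sum of fibroblast and progenitor markers was also highest in LFD3 (33342 TPM). That sum was lowest in LFD1 (2185 TPM), where *Igfbp6* lay above its level in every HFD-fed mouse. The part of these cells in the level of *Igfbp6* was not tested. Its log2 fold change of -1.55 had a standard error of 0.56 (edgeR adjusted p = 0.406) and moved to -1.13 without HFD3 and to -1.20 without LFD3, where its unadjusted p by edgeR went from 0.02796 to 0.0736.

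*Igfbp7* (ENSMUSG00000036256, reverse strand of chromosome 5 from 77349240 to 77408041) encodes a secreted protein related to the IGF binding proteins that binds IGFs weakly. TPM values were 103 (HFD1), 196 (HFD2) and 342 (HFD3) and 129 (LFD1), 359 (LFD2) and 427 (LFD3). Mice of 1 diet differed more than the diet means, 214 ± 121 and 305 ± 156 TPM (SD, n = 3 each). The summed TPM of 10 endothelial markers ranged from 179 to 787 under HFD and from 216 to 468 under LFD, and its part in the level of *Igfbp7* was not tested. A log2 fold change of -0.24 had a 95% interval from -1.12 to 0.63 (edgeR adjusted p = 0.9004). It was -0.06 without HFD1, -0.14 without HFD2, -0.59 without HFD3, -0.46 without LFD1, -0.15 without LFD2 and -0.11 without LFD3.

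*Igfbp2* (ENSMUSG00000039323, forward strand of chromosome 1 from 72824503 to 72852474) encodes a binding protein made largely by the liver. It was at the limit of detection, with 5 rounded counts summed over the HFD-fed and 4 over the LFD-fed mice, and 0 to 3 in any mouse. It did not pass the filter on low counts, and a difference between the diets was not detectable at this depth. *Igfbp2* and *Igfbp5* are neighbours with 5457 bases between them, and *Igfbp5* was the higher of the pair in every mouse.

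**Figure D2:**
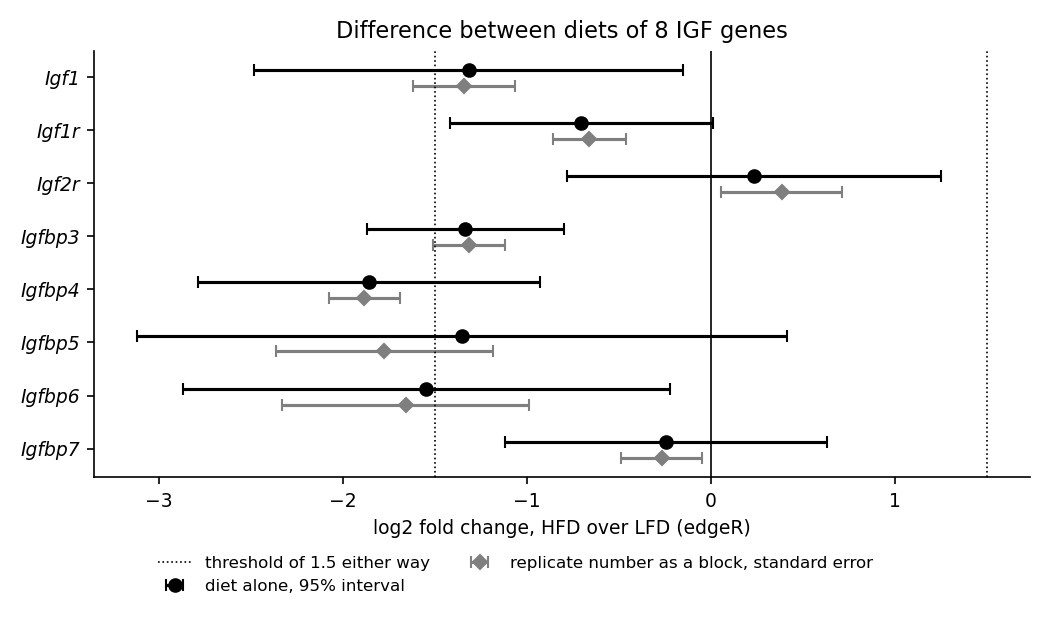
Log2 fold change of the 8 tested IGF genes, HFD over LFD (horizontal axis). Black points and bars are the edgeR fit on diet alone with its 95% interval, grey points and bars the paired fit with its standard error, and dotted lines the threshold of 1.5. *Igfbp3* at -1.33 has the narrowest interval and *Igfbp5* at -1.35 the widest.

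Since mice differ in the share of counts taken by other genes, the IGF genes were also set against each other within each mouse, as ratios and shares of TPM, with no test. The ratio of *Igfbp4* to *Igf1* was 1.82 (HFD1), 1.93 (HFD2) and 1.85 (HFD3), and 3.12 (LFD1), 2.83 (LFD2) and 4.02 (LFD3) under LFD. In TPM *Igfbp4* was thus lower relative to *Igf1* in every HFD-fed mouse, and the HFD-fed mice were close to each other. TPM divides by an averaged transcript length, which for *Igf1* ran from 2178 to 3194 bases. In rounded counts without length, *Igfbp4* and *Igf1* had 2271 and 1642 in HFD2 and 8418 and 6231 in LFD2. The diets overlapped in the ratio of these counts, and HFD1, with 2308 and 2324, lay apart from HFD2. For *Igf2r* over *Igf1r* the ratio was 10.6 (HFD1), 9.78 (HFD2) and 8.495 (HFD3), above the 5.64 (LFD1), 3.63 (LFD2) and 7.29 (LFD3) of LFD-fed mice. The diets were apart in this ratio, although they overlapped for both receptors in TPM. They overlapped in the other ratios taken between 2 genes, *Igf1* over *Igf1r*, *Igfbp7* over *Igfbp4* and *Igfbp4* over *Igfbp3*. Summed over *Igfbp2* to *Igfbp7*, the TPM was 260 (HFD1), 393 (HFD2) and 429 (HFD3), lower than the 552 (LFD1), 1062 (LFD2) and 1060 (LFD3) of LFD-fed mice. Relative to *Igf1* the sum did not set the diets apart, at 9.68 ± 4.02 times for HFD and 9.45 ± 4.596 times for LFD (SD, n = 3 each).

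**Figure D3:**
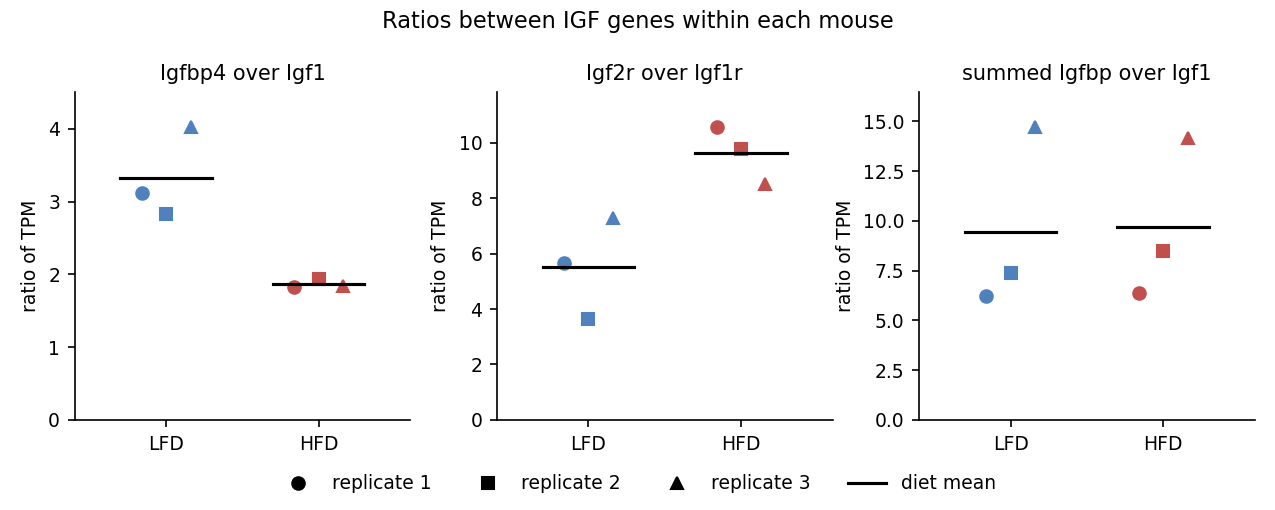
Ratios of TPM within each mouse (vertical axes, from 0) for LFD-fed and HFD-fed mice, with the diet mean as a line and the replicate number as the shape of the point. *Igfbp4* over *Igf1* lies at 1.82 to 1.93 under HFD and at 2.83 to 4.02 under LFD, and the summed binding proteins over *Igf1* overlap. By counts without length, *Igfbp4* over *Igf1* overlaps too.

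*Igfbp7* made up, in percent of the summed binding protein TPM, 39.7 (HFD1), 49.9 (HFD2) and 79.8 (HFD3), and under LFD 23.3 (LFD1), 33.8 (LFD2) and 40.3 (LFD3). HFD3 stood apart in that most of its binding protein transcripts came from this gene. *Igfbp4* made up 21.5% ± 7.85 under HFD and 38.6% ± 11.4 under LFD (SD, n = 3 each), and its share was higher in HFD1 than in LFD3, so the diets overlapped. *Igfbp5* held 1.82% of the sum in HFD3 and 9.09% to 16.2% in the other 5 mice. *Igfbp3* kept a small share, 2.02% to 2.19% under HFD and 2.197% to 2.91% under LFD.

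**Figure D4:**
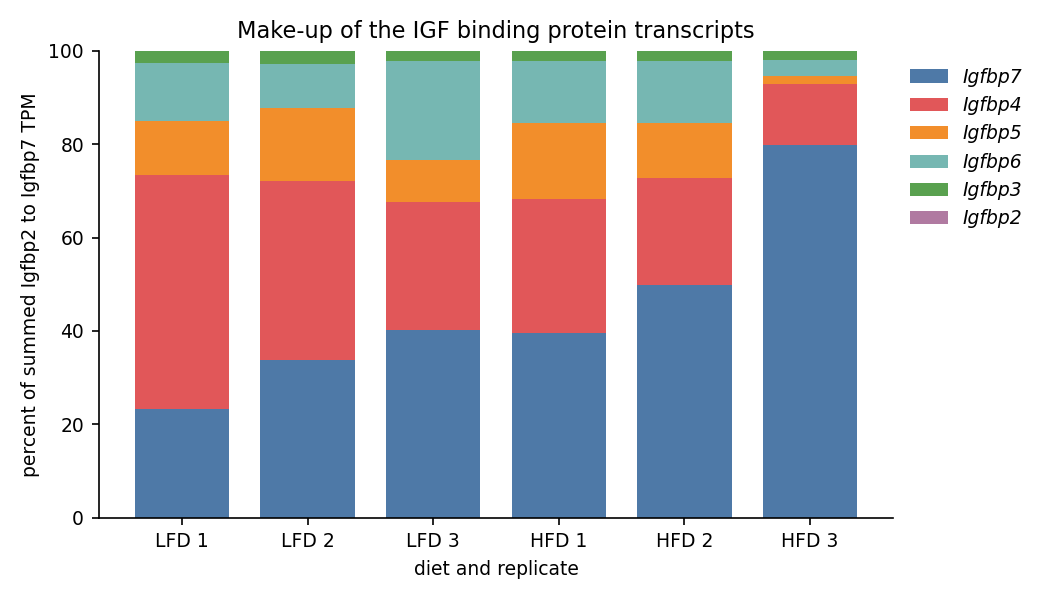
Share of each binding protein gene in the summed TPM of *Igfbp2* to *Igfbp7*, in percent (vertical axis), in each mouse. *Igfbp7* holds 79.8% in HFD3, and *Igfbp4* 50.1% in LFD1.

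RSEM averages the length of the transcripts of a gene by their abundance, so this length moves when the mix of isoforms does. The averaged length of *Igf1*, in bases, was 2677 (HFD1), 2287 (HFD2) and 2178 (HFD3), and 2337 (LFD1), 3194 (LFD2) and 2892 (LFD3) under LFD, so the diets overlapped. For *Igf1r* it was 6609 ± 177 bases for HFD and 7509 ± 692 bases for LFD (SD, n = 3 each), with the longest HFD average, 6769 bases, just under the shortest LFD average, 6777 bases. Its exact two-sided permutation p was 0.1, the smallest that 3 mice against 3 allow, and 0.8 after Benjamini-Hochberg adjustment over the 8 genes whose length varied. *Igfbp3*, *Igfbp5* and *Igfbp7* had a longest average that was 0.987%, 1.54% and 0.245% above the shortest, and *Igfbp6* had the same length in all 6 mice.

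The other genes of the IGF system were taken from lists of 33 genes, of which edgeR tested 30 and called 0, with 5 lower and 1 higher under HFD at an unadjusted p below 0.05, beside 6.62% lower and 3.86% higher among all tested genes. Their median log2 fold change was -0.26. Of the other ligand and carrier genes, *Igfbp1*, the neighbour of *Igfbp3*, and *Igfbpl1* had 0 counts in all 6 mice. *Igfals*, the acid-labile subunit that joins IGF1 and IGFBP3 or IGFBP5 in blood, measured 2.55 (HFD1), 1.93 (HFD2) and 0.510 (HFD3) TPM under HFD and 19.1 (LFD1), 20.2 (LFD2) and 4.07 (LFD3) TPM under LFD (log2 fold change -2.89, edgeR adjusted p = 0.381, and 0.0214 paired by replicate number). *Igf2*, the other ligand, had 22.7 TPM in LFD2 and 1.20 to 2.25 TPM in the other 5 mice. Its log2 fold change was -2.47 (edgeR adjusted p = 0.438). The 6 genes of growth hormone signalling, which drives *Igf1* expression, had a median log2 fold change of -0.28, and 0 of them had an unadjusted p under 0.05 by edgeR. *Ghr*, the growth hormone receptor, measured 169 (HFD1), 105 (HFD2) and 72.8 (HFD3) TPM under HFD and 567 (LFD1), 638 (LFD2) and 162 (LFD3) TPM under LFD (log2 fold change -1.71, edgeR adjusted p = 0.519). *Socs2*, a feedback inhibitor of the same pathway, had a log2 fold change of -0.43.

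Of all tested genes, 6.62% were lower and 3.86% higher under HFD at an unadjusted p under 0.05 by edgeR. Among the 6 tested genes of proteases that cut the binding proteins and of their inhibitors, 1 was lower and 0 higher at that p. This was *Stc2*, stanniocalcin 2, an inhibitor of PAPP-A, with 0.583 ± 0.323 TPM for HFD and 2.95 ± 1.69 TPM for LFD (SD, n = 3 each) and a log2 fold change of -2.09 (edgeR adjusted p = 0.373). *Htra3*, a secreted serine protease, had a log2 fold change of -1.18 (edgeR adjusted p = 0.561), with its highest level in LFD3. Of the 9 receptor partners and adaptors, 2 were lower and 1 higher at an unadjusted p under 0.05. *Grb14*, an adaptor that inhibits the insulin receptor, was the higher one, with 40.3 (HFD1), 32.1 (HFD2) and 18.2 (HFD3) TPM under HFD and 9.71 (LFD1), 10.1 (LFD2) and 3.82 (LFD3) TPM under LFD (log2 fold change 2.14, edgeR adjusted p = 0.319, and 0.0312 paired by replicate number). *Pik3r1*, the regulatory subunit of PI 3-kinase, had a log2 fold change of -1.71 (edgeR adjusted p = 0.376). The 7 genes of mannose 6-phosphate sorting, the partners of IGF2R inside the cell, had a median of 0.11 with 0 genes at an unadjusted p under 0.05. Their largest log2 fold changes were 0.52 for *M6pr*, the other mannose 6-phosphate receptor, and -0.47 for *Gnptab*, which makes the mannose 6-phosphate mark.

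**Figure D5:**
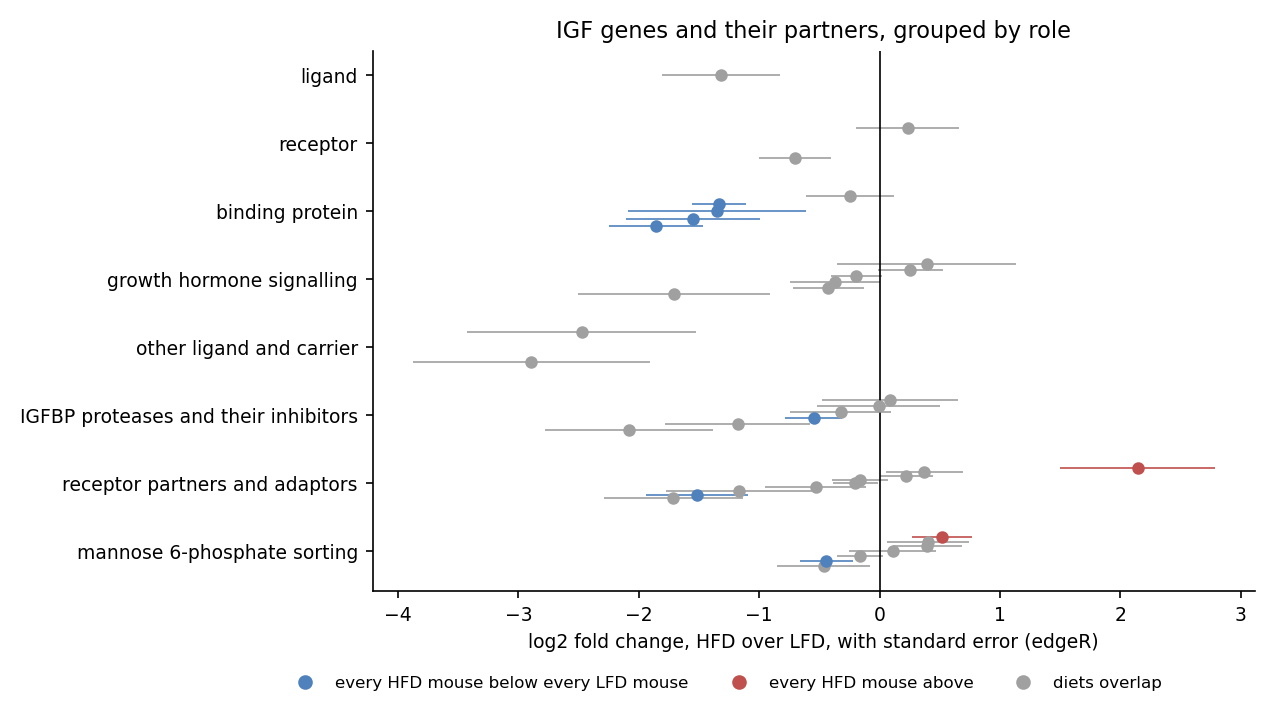
Log2 fold change, HFD over LFD, with its standard error (horizontal axis, edgeR) for the tested IGF genes and the listed partner genes, grouped by role. Blue points are genes with each HFD-fed mouse below each LFD-fed mouse in log2 CPM, red points those with the reverse, and grey points those that overlap. Of the 5 tested binding proteins 4 are blue, a layout that 9.23% of all tested genes have. *Grb14* at 2.14 is red, as is *M6pr* at 0.52, a layout that 6.72% of all tested genes have.

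The profile of each IGF gene over the 6 mice was set against 4711 protein-coding genes with a mean log2 CPM of at least 5, by the root-mean-square (RMS) difference of log2 CPM centred over the mice, as a description. Among the IGF genes themselves *Igf1r* and *Igfbp7* were most alike (0.27), followed by *Igf1* and *Igfbp4* (0.37). The genes most like *Igf1* were *Irs1* (0.16) and *Fhl1* (0.19). *Irs1*, the docking protein of the insulin and IGF1 receptors, measured 5.47 (HFD1), 7.13 (HFD2) and 4.57 (HFD3) TPM under HFD and 13.96 (LFD1), 31.5 (LFD2) and 13.97 (LFD3) TPM under LFD (log2 fold change -1.52, edgeR adjusted p = 0.285). For *Igfbp3* the nearest genes were *Slc43a3* (0.11) and *Rere* (0.18), and for *Igfbp4* they were *Egfr* (0.24) and *Nr1d1* (0.29). *Igfbp5* was nearest to *Scara5* (0.21) and *Pi16* (0.25), of which *Pi16* is on the list of fibroblast and progenitor markers. *Igfbp6* had no gene as near, with *Pcsk6* (0.34) and *Sema3c* (0.37) the closest. The remaining genes were nearest to *Itgav* (0.09) and *Vat1* (0.11) for *Igf2r*, *Map4* (0.13) and *Ecm1* (0.14) for *Igf1r*, and *Frmd4b* (0.14) and *Osmr* (0.15) for *Igfbp7*. All values share the same 6 libraries and their depth.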

How the data were processed

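BAT RNA of 6 mice was compared between the diets that the labels give. The authors trimmed the single-end reads (Trimmomatic 0.36), ran RSEM 1.3.0 on GRCm38.p4 with the Ensembl annotation, and deposited for each mouse expected counts per gene, not normalized, and TPM values scaled to a fixed sum. A read that matches several genes is shared between them, and the strand setting is not given in the sources used here. The authors also deposited, as signal columns, RSEM's bounds of the TPM and the SD of the count, and an averaged transcript length.

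Expected counts were rounded and tested in R 4.3.3 with edgeR 4.0.16 (quasi-likelihood test, TMM, edgeR's filter on low counts, Benjamini-Hochberg adjustment over 17668 genes), on diet alone. Fold changes are HFD over LFD. Log2 CPM used a prior count of 2. The test was tried on simulated counts first. P-values measure the spread between 3 mice a diet, and intervals of 1 library cover counting error and the sharing of reads only.

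Alternatives used DESeq2 1.42.0, limma 3.58.1 on log2(TPM + 1), RLE size factors, other filters, mitochondrial genes or the listed skeletal muscle markers left out, each mouse left out, and the replicate number as a block. The share of counts from mitochondrially encoded genes fell from replicate 1 to 3 in both diets. It was 22.7%, 16.5% and 8.50% under HFD and 13.8%, 9.12% and 3.87% under LFD, and its part in the paired fit was not tested. Across genes, same-numbered mice deviated from their diet means together, with r between 0.229 and 0.522 in the 3 pairs. In the 6 pairs of unlike number r ran from -0.528 to 0.0532. The labels' numbers are the source of the pairing. No source used here states that same-numbered mice belong together, and this r comes from the same data as the paired fit. Between mice of one diet the chi-square statistic of the counts over its degrees of freedom was 71.7 to 558, so no library was repeated. *Itgam* of the macrophage list matched 2 rows, which were both summed. Named partner genes were the 2 with the largest change in each list, and the 2 nearest in profile to each IGF gene. The choice of the IGF gene family, and of the partner and marker lists, was made with earlier results of these data known, although membership rests on the symbol alone. Symbols came from the table, positions from GENCODE M21 and promoter windows from RefSeq.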

Additional observations from a re-analysis of the deposited data

How the results depend on the processing

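edgeR called 0 of the 8 tested IGF genes also with RLE size factors, with either other filter, without mitochondrial genes or the 12 skeletal muscle markers, with the replicate number as a block, with each mouse left out, and at an adjusted p under 0.05 with no minimum fold change, and limma on log2(TPM + 1) called 0. Leaving out marker rows does not take muscle RNA out of the counts of the IGF genes, so it does not test the part of muscle. DESeq2 called 1 (*Igfbp4*), beside 411 of all genes, where edgeR called 0 and limma 1. At an unadjusted p under 0.05 edgeR had 4 genes, 3 to 4 with 1 mouse left out and 5 with the replicate block, with no filter and without mitochondrial genes, and limma had 5. These were not always the same genes: *Igfbp3* and *Igfbp4* were among them each time, *Igf1* was not without HFD2, HFD3, LFD1 or LFD2, *Igfbp6* was not in the block or without LFD3, *Igf1r* entered without LFD1, in the block, with no filter and without mitochondrial genes, *Igfbp5* entered in the block and by limma, and *Igf2r* entered as higher without LFD3. In the paired fit 184 of all genes had an adjusted p under 0.05, and the pairing changed no call at 0.01. The 4 genes whose diets did not overlap became 5 in TPM, where *Igf1* was added, and 4 to 6 with 1 mouse left out. The direction was the same in every alternative for *Igf1*, *Igf1r* and the 5 tested binding proteins, while *Igf2r* ranged from -0.0463 without LFD1 to 0.81 without LFD3. The cause was not tested. On the log2(TPM + 1) scale the median log2 fold change of all genes was -0.18 against -0.05 on counts, a shift of -0.13, and *Igfbp4* and *Igfbp5* had -2.14 and -1.96. Ordered by counts without length, *Igfbp5* and *Igf2r* came first and second in place of *Igfbp7* and *Igfbp4*. Depth kept *Igfbp2* from being tested.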

Other observations

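The annotation places other genes over some of the IGF genes. *Igf1os*, antisense to *Igf1*, had 2 to 8 rounded counts in HFD-fed and 6 to 19 in LFD-fed mice, against 1106 or more of *Igf1*. *Airn*, the noncoding RNA antisense to *Igf2r*, had 87 to 180 rounded counts under HFD and 58 to 198 under LFD, against 2407 or more of *Igf2r*. *Polr2b*, which encodes a subunit of RNA polymerase II and lies on the other strand of the *Igfbp7* locus, had 1121 to 1359 rounded counts per mouse over both diets. Where exons of both genes overlap, their reads cannot be told apart if the counting did not use strand. Only the spans of the genes were compared here, not their exons. RSEM's SD of the count was 0 for *Igf2r* in every mouse. It was 0.11 to 0.5 for *Igf1* and 2.34 to 3.05 for *Igfbp7*.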
